A study of Homo sapiens with 12 samples.

Results

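The genes described here are 38 genes of glycolysis, of fuel transport into and out of the cell, and of the response to low oxygen, out of 30238 genes with a name on the array. They were found on the array by symbol, and each was read from its brightest probe. The 38 genes have 60 probes in all. Gene expression was compared on 12 Agilent 2-color arrays of Rh30, a human alveolar rhabdomyosarcoma (ARMS) line that carries the PAX3-FKHR fusion. WT is the untransfected parental line, CON a stable clone with a non-targeting shRNA, and KD1 a single stable clone with an shRNA against the fusion transcript. Both clones were under puromycin at 1 μg/mL and WT was not, so that the drug and the viral vector cannot be told apart from clone against parent. Each of the 3 comparisons, KD1 vs CON, KD1 vs WT and WT vs CON, was made on 4 arrays, as a dye-swap pair for each of 2 biological replicates. The arrays hold 6 RNA extracts, so the comparisons share extracts and are not independent of each other. All cultures were grown for 24 h before RNA was taken, and the oxygen level and the glucose supply of each culture were not measured on the arrays.

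Glycolysis converts glucose to pyruvate, which either enters the mitochondria or is reduced to lactate and exported. Most steps exist in several isoforms coded by separate genes, and skeletal muscle has its own forms of several enzymes, which appear as myoblasts differentiate. Under low oxygen the transcription factor HIF-1, whose regulated subunit is HIF1A, binds a short DNA motif called the hypoxia response element. HIF-1 induces glucose transporters, glycolytic enzymes, kinases that inhibit pyruvate dehydrogenase, and VEGFA. Rhabdomyosarcoma cells hold part of the muscle program without completing it, which is why the muscle forms were set against the ubiquitous ones.

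The core of the hypoxia response element is ACGTG or GCGTG, read on either strand. In the 250 bases before the RefSeq start site on GRCh38.p14, 20 of the 33 listed genes with a promoter entry (60.6%) hold at least 1 match, against 43.1% of 27305 promoters of the same length. The listed promoters have a median GC content of 68.4% and all promoters 58%, and the part of GC content in that difference was not tested. PYGM, SLC2A3, SLC2A4, SLC16A1 and VEGFA have no entry. The promoters shown are those of PDK3, the listed gene that passed the test, of LDHA and BNIP3, which are textbook targets of HIF-1 and have 5 and 6 matches, and of EGLN3, a HIF-induced gene with none in this window. They lie at chrX:24465036-24465285 on the plus strand, chr11:18394313-18394562 on the plus strand, chr10:131981924-131982173 on the minus strand and chr14:33951075-33951324 on the minus strand. Capitals mark the matches, and the palindrome CACGTG counts as 2 overlapping matches.
PDK3: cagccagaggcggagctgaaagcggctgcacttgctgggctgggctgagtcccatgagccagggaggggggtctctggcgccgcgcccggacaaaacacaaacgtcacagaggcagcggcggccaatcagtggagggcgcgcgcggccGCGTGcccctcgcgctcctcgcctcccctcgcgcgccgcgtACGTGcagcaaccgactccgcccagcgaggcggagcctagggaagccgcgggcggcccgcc
LDHA: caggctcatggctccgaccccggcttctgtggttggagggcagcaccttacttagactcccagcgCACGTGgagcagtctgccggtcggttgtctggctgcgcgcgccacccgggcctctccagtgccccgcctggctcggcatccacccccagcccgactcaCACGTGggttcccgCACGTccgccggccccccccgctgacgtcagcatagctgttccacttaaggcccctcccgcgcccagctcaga
BNIP3: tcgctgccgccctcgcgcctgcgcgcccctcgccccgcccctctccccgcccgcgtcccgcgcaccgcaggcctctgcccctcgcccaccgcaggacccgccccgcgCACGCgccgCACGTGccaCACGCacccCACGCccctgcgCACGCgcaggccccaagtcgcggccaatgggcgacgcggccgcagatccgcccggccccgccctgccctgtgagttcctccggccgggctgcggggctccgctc
EGLN3: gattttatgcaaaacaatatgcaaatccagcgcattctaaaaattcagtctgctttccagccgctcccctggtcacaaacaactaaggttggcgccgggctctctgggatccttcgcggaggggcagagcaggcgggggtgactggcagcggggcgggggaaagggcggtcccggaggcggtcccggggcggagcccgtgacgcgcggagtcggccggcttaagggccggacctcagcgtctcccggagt
A match is a description of the letters and does not show that a factor binds.

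Each array has 2 channels, 1 per dye, and each culture was read in 8 channels, in which the scanner software marks a spot as well above background or not. Of the 38 genes, 35 were so in all 8 channels that hold KD1 RNA, 36 in CON and 35 in WT. CA9, a hypoxia-induced carbonic anhydrase, was not well above background in any channel of KD1 or CON and was so in 2 of 8 channels of WT. PGAM2, the muscle phosphoglycerate mutase, was well above background in 2 of 8 channels of CON and in none of KD1 or WT. A gene was tested where, on each of the 4 arrays, the signal of either dye exceeded that of 99% of the negative control spots, which left 32 of the 38 genes for KD1 vs CON, 35 for KD1 vs WT and 36 for WT vs CON. CA9 and PGAM2 were tested in no comparison. CKM was tested for WT vs CON alone, and ALDOC, SLC2A3 and SLC2A4 were not tested for KD1 vs CON. ALDOC and SLC2A3 were left out there although well above background in all 8 channels of each culture. The limit set by the control spots differed between arrays, from 1.81 to 40.6 signal units. It was highest on a KD1 vs CON array of replicate 1. The array has no probe across the fusion junction. Values are log2 ratios of the first culture over the second, each the mean of a dye-swap pair, and adjusted p are those of limma after Benjamini-Hochberg adjustment over all probes tested. The brightest probe of PAX3 had log2 ratios of −0.39 and −0.46 for KD1 vs CON, and that of FOXO1 (FKHR) had −0.26 and −0.58, with adjusted p of 0.327 and 0.432 (limma). These probes also read the unrearranged genes. The study measured the fusion itself by real-time RT-PCR and Western blot, and reported less of its mRNA and protein in KD1 than in CON. Of 25 muscle genes, 22 were well above background in all channels of KD1, MYOD1 and DES among them. Of 8 markers of other cell types, 3 were well above background in all channels of every culture, and 4 in KD1, 4 in CON and 2 in WT were so in no channel, PTPRC and ALB among them. The macrophage marker CD68 was called higher in KD1 than in CON, with log2 ratios of 1.30 and 1.79 and an adjusted p of 0.0221, and its part in the results below was not tested.

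Of the listed genes 1 passed the test across the 3 comparisons. It was PDK3, a kinase that inhibits pyruvate dehydrogenase, and it was higher in KD1 than in CON. Its log2 ratios were 1.50 and 1.15 in the replicates, with a mean of 1.32 ± 0.25 (SD, n = 2), or 2.50-fold. The adjusted p of limma was 0.0374 and the 95% interval of the log2 ratio was 0.80 to 1.85. The 4 arrays lay between 1.07 and 1.67, and both dye orientations were above 0. Across all genes tested, 0.85% were called higher for KD1 vs CON and 1.06% lower, so that 1 called gene of 32 (3.12%) is a count too small to set the list apart. The call depended on the fit. It used 2 residual degrees of freedom, set by hand, and with the 3 that the model leaves the adjusted p was 0.0536. With the extracts paired by replicate number as a block it was 0.0720, and 7 of 12 alternatives ended the call, with adjusted p of up to 0.130.

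The parental line also had more PDK3 signal than CON in both replicates. Its log2 ratios for WT vs CON were 0.80 and 1.27, with a mean of 1.04 ± 0.34 (SD, n = 2), 2.05-fold, and an adjusted p of 0.0891. For KD1 vs WT they were 0.63 and 0.04, with a mean of 0.33 ± 0.41 and an adjusted p of 0.503. On the separate-channel scale, where each extract has a log2 signal averaged over its 4 arrays, PDK3 read 8.32 and 7.78 in the CON extracts, 9.15 and 9.0 in WT and 9.74 and 8.97 in KD1. Both CON extracts lay below all 4 others, and the KD1 and WT extracts overlapped. The probe lies at chrX:24456129-24456188 (NCBI36, plus strand). The 51 nearest expressed genes on the X chromosome had median log2 ratios of 0.31 for KD1 vs CON and 0.31 for KD1 vs WT, and of −0.003 for WT vs CON. The part of the surrounding region in the PDK3 ratio was not tested.

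None of the other switches of glycolytic flux was called. PDK1, the kinase of the same family that HIF-1 is best known to induce, had 0.36 and 0.33 for KD1 vs CON and was above 0 on all 4 arrays, with an adjusted p of 0.538. For KD1 vs WT its replicates were 0.38 and −0.44. A second PDK1 probe gave 0.51 and 0.77 for KD1 vs CON, with an adjusted p of 0.322, and 0.97 and −0.08 for KD1 vs WT. PDK2, the widely expressed form, stayed between −0.08 and 0.25 in all 6 replicate values. PFKFB3 and PFKFB4 make fructose 2,6-bisphosphate, the activator of phosphofructokinase, and their mean ratios lay between −0.19 and 0.15. One of the 4 PFKFB3 probes differed from the rest. It read 0.42 and −1.16 for KD1 vs CON and −0.26 and −2.52 for KD1 vs WT. The brightest probe read 0.22 and −0.22, and 0.08 and −0.45. For WT vs CON the differing probe read 0.95 and 1.59 (adjusted p of 0.246, limma), and the brightest probe 0.17 and 0.13. Which transcripts the probes of PFKFB3 share was not tested.

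**Figure D1:**
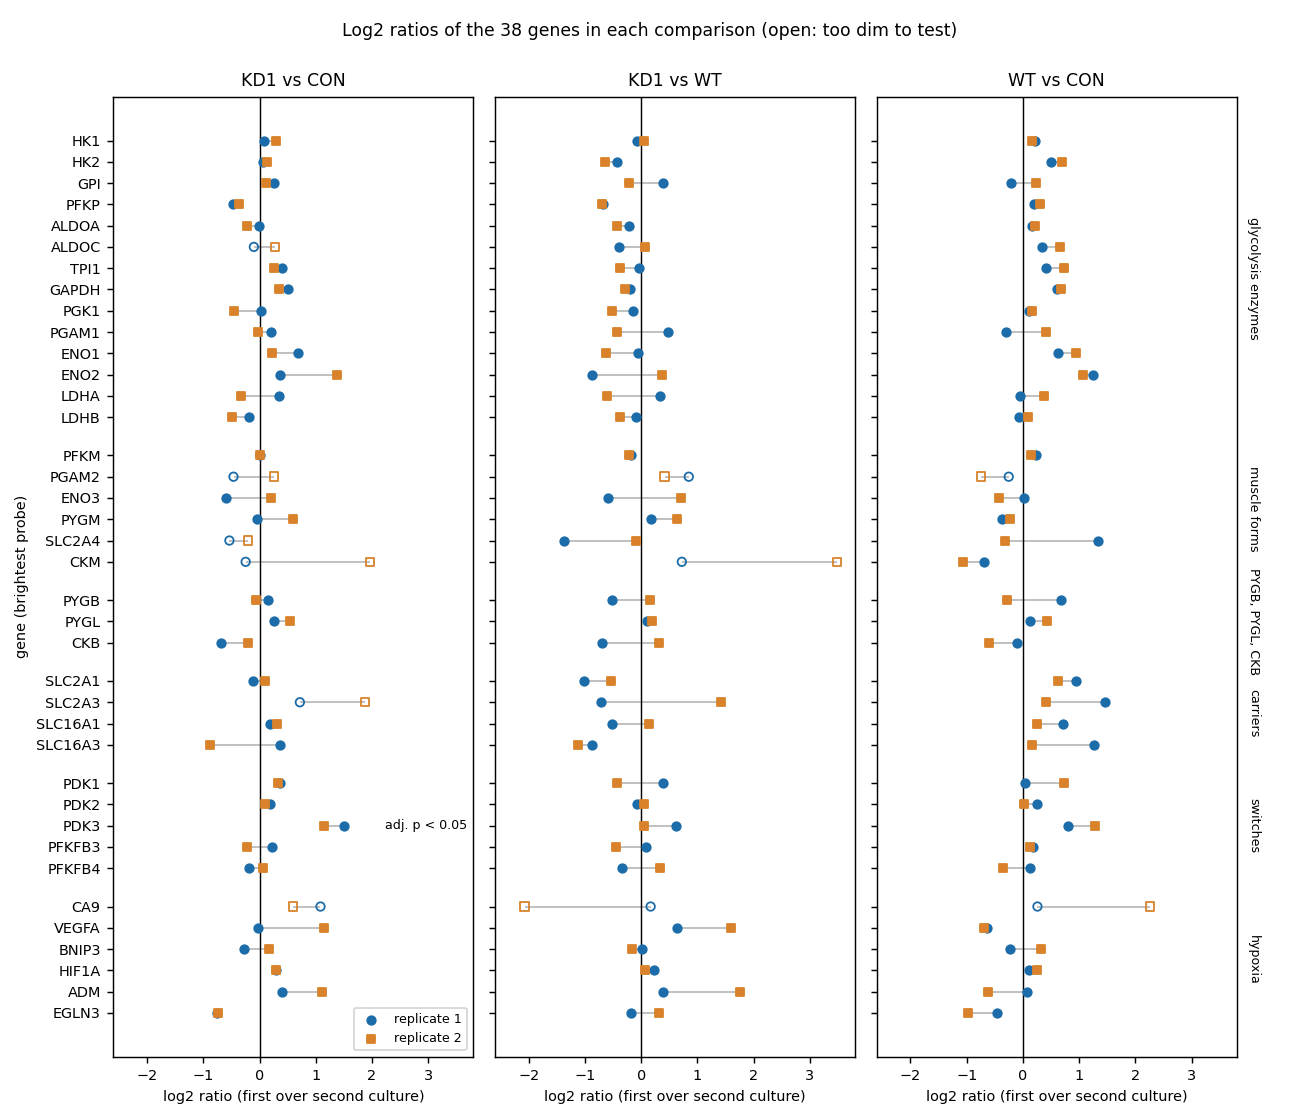
Log2 ratios of the 38 genes (rows, grouped by role) for KD1 vs CON, KD1 vs WT and WT vs CON, with 1 point per biological replicate, each the mean of a dye-swap pair, and a grey line joining them. Open symbols are genes not tested in that comparison. PDK3 for KD1 vs CON, at 1.50 and 1.15, is the one gene with an adjusted p below the threshold, and many other pairs of points lie on both sides of 0.

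The list was described by its median and by the share of its genes near 0. The median log2 ratio of the genes tested was 0.10 for KD1 vs CON, −0.17 for KD1 vs WT and 0.19 for WT vs CON, beside −0.02, 0.005 and −0.03 over all genes tested. For KD1 vs CON, 27 of 32 genes (84.4%) had a mean ratio under 0.5 in size, against 80.2% of all genes. For KD1 vs WT it was 28 of 35 (80.0%) against 78.6%, and for WT vs CON 22 of 36 (61.1%) against 78.9%. An unadjusted p under 0.05 (limma) was found for 4 of 32 genes for KD1 vs CON, 6 of 35 for KD1 vs WT and 8 of 36 for WT vs CON. Over all genes tested it was 2721 of 15757, 3085 of 17849 and 3174 of 19123. A single call was left after adjustment. For KD1 vs WT, where 0.835% of all genes were called lower and 0.336% higher, limma called 0 of the listed genes. For WT vs CON, where 0.659% were called lower and 0.826% higher, it also called 0.

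The replicates pointed the same way in 20 of 32 genes (62.5%) for KD1 vs CON, where 71.6% of all genes did so. The count was 18 of 35 (51.4%) for KD1 vs WT against 56.5%, and 26 of 36 (72.2%) for WT vs CON against 60.5%. A mean change of at least 2-fold with all 4 arrays on one side was seen for PDK3 for KD1 vs CON, for SLC16A3, VEGFA and ADM for KD1 vs WT, and for ENO2 and PDK3 for WT vs CON. These are 3.12%, 8.57% and 5.56% of the genes tested, against backgrounds of 4.26%, 4.68% and 4.72%. For WT vs CON the 26 same-direction genes were 21 higher and 5 lower in WT. For KD1 vs WT the 18 were 6 higher and 12 lower in KD1, and for KD1 vs CON the 20 were 15 higher and 5 lower. The same split over all genes tested was not computed, so these counts have no background beside them.

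**Figure D2:**
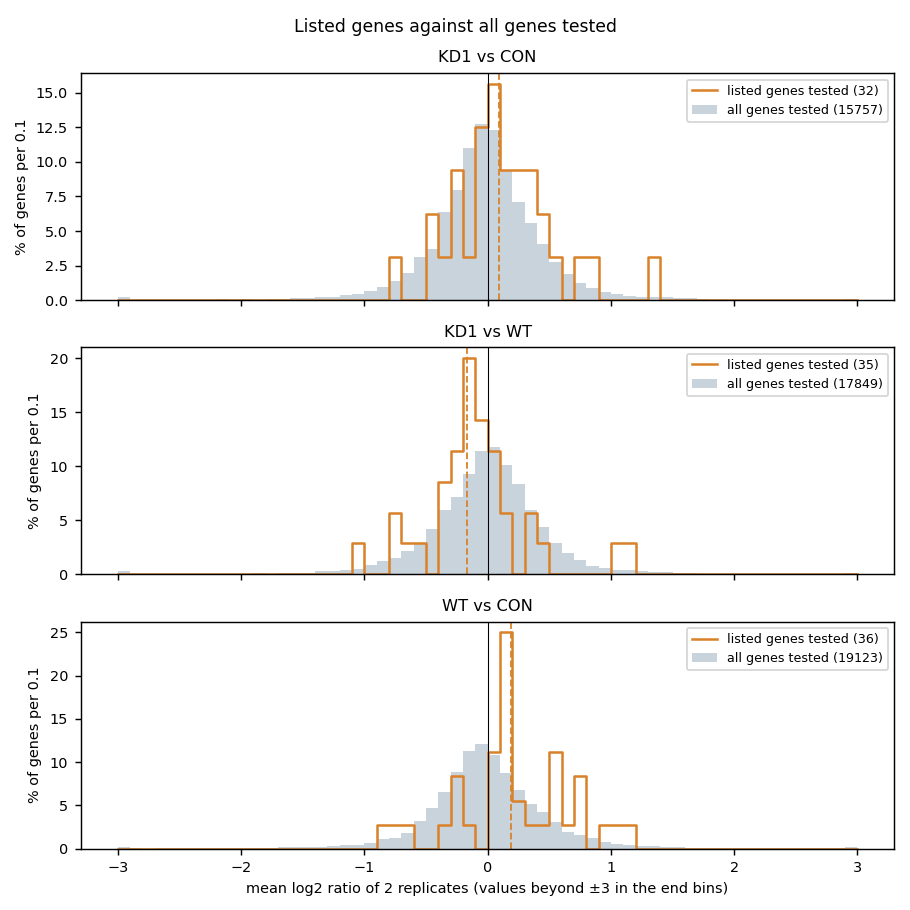
Share of genes (y axis, percent per 0.1 log2 unit) by mean log2 ratio of the replicates (x axis), for all genes tested (grey bars) and the listed genes tested (orange line, dashed at their median), in each comparison. The listed genes overlap the body of all genes, with medians of 0.10, −0.17 and 0.19.

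The enzymes of the glycolytic chain in their ubiquitous or housekeeping forms, with the lactate dehydrogenases, make up 14 of the 38 genes. None was called. For WT vs CON 10 of the 14 had ratios above 0 in both replicates and 0 below 0 in both, and for KD1 vs WT 8 of the 14 were below 0 in both and 0 above 0 in both. The comparisons share the WT extracts, and the 2 counts are not independent. They are 71.4% and 57.1% of the genes, where both replicates pointed one way for 60.5% and 56.5% of all genes. How all genes split into higher and lower was not computed. The list medians were 0.22 for WT vs CON, −0.24 for KD1 vs WT and 0.10 for KD1 vs CON.

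At the entry to the pathway, HK2, the regulated hexokinase, had 0.49 and 0.70 for WT vs CON and −0.43 and −0.64 for KD1 vs WT, and 0.05 and 0.14 for KD1 vs CON. Its WT value was the highest of the 3 cultures in both replicates, with adjusted p of 0.212 and 0.232 in the comparisons with WT. A second HK2 probe gave 0.60 and 0.77 for WT vs CON and −0.33 and −0.68 for KD1 vs WT. HK1, the constitutive hexokinase, had mean ratios between −0.01 and 0.19. GPI, which converts glucose 6-phosphate to fructose 6-phosphate, was at 0.38 and −0.22 for KD1 vs WT and had mean ratios between 0.01 and 0.18.

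PFKP, the platelet form of phosphofructokinase, differed little between replicates. It had −0.48 and −0.37 for KD1 vs CON and −0.68 and −0.69 for KD1 vs WT, with all 8 arrays below 0. The means were −0.43 ± 0.08 and −0.68 ± 0.01 (SD, n = 2) with adjusted p of 0.304 and 0.151, and the 95% interval against WT was −1.14 to −0.23. In extract signals PFKP read 14.48 and 14.12 in CON, 14.64 and 14.48 in WT and 13.95 and 13.74 in KD1, so that both KD1 extracts lay below all others. For WT vs CON the ratios were 0.19 and 0.30.

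ALDOA, the main aldolase, was at −0.21 and −0.42 for KD1 vs WT, −0.01 and −0.23 for KD1 vs CON and 0.16 and 0.22 for WT vs CON. ALDOC, the aldolase of brain, was dim, with 0.34 and 0.66 for WT vs CON. TPI1, the triose phosphate isomerase, had 0.40 and 0.26 for KD1 vs CON and 0.41 and 0.73 for WT vs CON. Neither passed the test (adjusted p of 0.461 and 0.242).

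GAPDH, which oxidizes glyceraldehyde 3-phosphate and was the reference gene of the real-time RT-PCR in the study, had 0.61 and 0.68 for WT vs CON, a mean of 0.64 ± 0.05 (SD, n = 2) or 1.56-fold. For KD1 vs CON it had 0.51 and 0.35 with a mean of 0.43 ± 0.11, 1.35-fold, and for KD1 vs WT −0.20 and −0.29. The adjusted p were 0.175, 0.302 and 0.565, and the 95% interval for WT vs CON was 0.18 to 1.11. Its extract signals were 16.48 and 16.37 in CON, 17.04 and 17.05 in WT and 16.89 and 16.76 in KD1, with no overlap between the 3 cultures.

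GAPDH, TPI1, ENO2 and SLC2A3 lie close together on chromosome 12 in the positions of the files (NCBI36), with probes at chr12:6517179-6517238, chr12:6850007-6850066, chr12:6902743-6902802 and chr12:7964191-7964250. The 51 expressed genes nearest to GAPDH had median log2 ratios of 0.39 for WT vs CON, 0.24 for KD1 vs CON and −0.13 for KD1 vs WT. Around TPI1 the medians were 0.36, 0.21 and −0.10, around ENO2 0.39, 0.24 and −0.09, and around SLC2A3 0.40, 0.29 and −0.08. These windows overlap and hold mostly the same genes. Over the positions of all 38 genes, the neighborhood medians ranged from −0.33 to 0.40 for WT vs CON, so that this stretch was at the upper end. The share of each gene's ratio that goes with its neighborhood was not tested.

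PGK1, the first ATP-forming kinase of the chain, was at 0.02 and −0.45 for KD1 vs CON and −0.15 and −0.53 for KD1 vs WT. Its 4 probes did not agree closely: 1 of the others read 0.66 and 0.40 for KD1 vs CON. PGAM1, the ubiquitous phosphoglycerate mutase, turned with the replicate, at 0.47 and −0.44 for KD1 vs WT and −0.29 and 0.41 for WT vs CON. LDHA, which makes lactate from pyruvate, did the same, at 0.34 and −0.34 for KD1 vs CON and 0.33 and −0.61 for KD1 vs WT. A second LDHA probe gave 0.27 and −0.41 for KD1 vs CON. One more, which the files place on chromosome 9 and not at the gene, gave 0.25 and −0.43. LDHB, the other lactate dehydrogenase listed, was at −0.19 and −0.48 for KD1 vs CON and −0.10 and −0.37 for KD1 vs WT. All 4 replicate values were below 0.

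ENO1, the ubiquitous enolase, had 0.62 and 0.95 for WT vs CON and 0.68 and 0.23 for KD1 vs CON. The means were 0.78 ± 0.23 and 0.45 ± 0.32 (SD, n = 2) with adjusted p of 0.158 and 0.352. A second probe agreed, at 0.61 and 0.88 for WT vs CON. ENO2, the neuronal enolase, had the largest mean of the enzymes for WT vs CON, with 1.25 and 1.07, a mean of 1.16 ± 0.13, 2.23-fold, and an adjusted p of 0.134. For KD1 vs CON it was at 0.37 and 1.37, and for KD1 vs WT at −0.89 and 0.38. Its extract signals were 8.31 and 8.06 in CON, 9.57 and 9.17 in WT and 8.68 and 9.53 in KD1, so CON was lowest and the spread was widest in KD1.

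**Figure D3:**
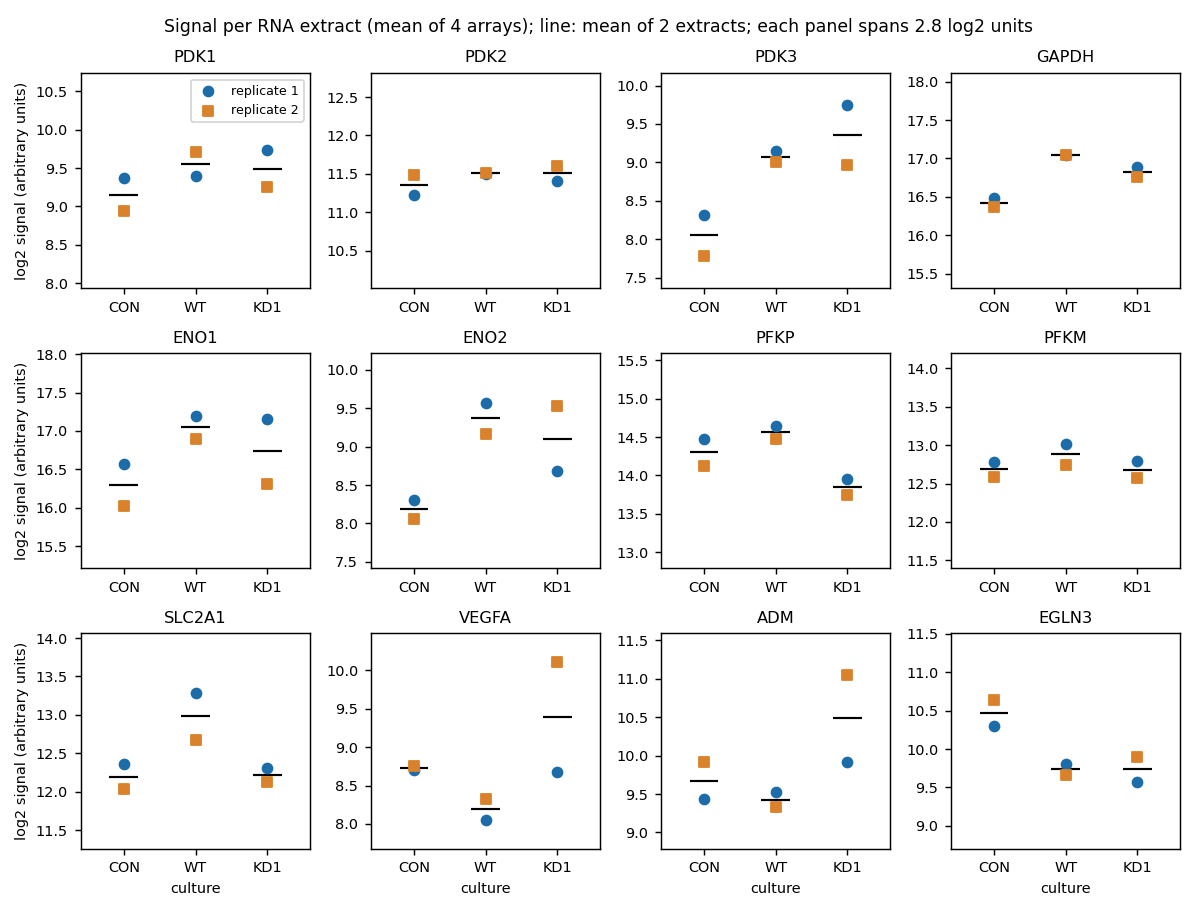
Log2 signal in arbitrary units (y axis) of 12 of the genes in each culture (x axis), 1 point per RNA extract averaged over its 4 arrays, with a line at the mean of the 2 extracts. Panels span the same range, and signals are not comparable between genes. CON lies lowest for PDK3, GAPDH and ENO2, KD1 lies lowest for PFKP, and replicate 2 of KD1 stands above the other extracts for VEGFA and ADM.

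The carriers SLC2A1, SLC2A3, SLC16A1 and SLC16A3 had ratios above 0 for WT over CON in both replicates, 4 of 4, with a median of 0.75, and none was called. Both replicates pointed one way, up or down, for 60.5% of all genes in this comparison. SLC2A1 (GLUT1), the basal glucose transporter, had 0.95 and 0.63 for WT vs CON and −1.01 and −0.54 for KD1 vs WT, while KD1 vs CON gave −0.11 and 0.10. The means were 0.79 ± 0.22 and −0.78 ± 0.33 (SD, n = 2) with adjusted p of 0.137 and 0.142, and 95% intervals of 0.28 to 1.30 and −1.28 to −0.28. Both WT extracts, at 13.29 and 12.67, lay above all 4 clone extracts, which read 12.36 and 12.03 in CON and 12.31 and 12.13 in KD1. Between the clones the mean ratio of SLC2A1 was −0.005 with a 95% interval of −0.49 to 0.48.

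SLC16A3 (MCT4), the lactate exporter, had −0.88 and −1.12 for KD1 vs WT, a mean of −1.001 ± 0.164 (SD, n = 2), with an adjusted p of 0.187. It was at 1.27 and 0.16 for WT vs CON and at 0.37 and −0.88 for KD1 vs CON, where its CON extracts differed by 0.78. SLC16A1 (MCT1), the more general lactate carrier, had 0.71 and 0.25 for WT vs CON and 0.19 and 0.31 for KD1 vs CON. SLC2A3 (GLUT3), a high-affinity glucose transporter, was dim and variable, at −0.72 and 1.42 for KD1 vs WT and 1.46 and 0.40 for WT vs CON. For KD1 vs CON, where it was not tested, it had 0.72 and 1.88.

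None of the hypoxia response genes was called. HIF1A itself had 0.29 and 0.29 for KD1 vs CON, 0.23 and 0.06 for KD1 vs WT and 0.11 and 0.26 for WT vs CON, with adjusted p of 0.492 to 0.754. HIF1A is controlled mainly through the stability of its protein, which the array does not read. BNIP3, a mitophagy receptor and a standard HIF-1 target, was at −0.28 and 0.17 for KD1 vs CON, 0.01 and −0.17 for KD1 vs WT and −0.23 and 0.32 for WT vs CON. None of the mean ratios of BNIP3 reached 0.1 in size.

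VEGFA, the angiogenic growth factor, had 0.64 and 1.60 for KD1 vs WT, a mean of 1.12 ± 0.68 (SD, n = 2), 2.18-fold, and an adjusted p of 0.137. For WT vs CON it was at −0.64 and −0.69, with an adjusted p of 0.325. For KD1 vs CON the replicates were −0.02 and 1.15, and the replicates did not agree. Another VEGFA probe gave 0.69 and 1.95 for KD1 vs WT and −0.14 and 1.28 for KD1 vs CON, and 1 more gave 0.90 and 1.62 for KD1 vs WT with an adjusted p of 0.0755. ADM, the vasodilator peptide adrenomedullin, went the same way, with 0.39 and 1.75 for KD1 vs WT and 0.41 and 1.11 for KD1 vs CON, with adjusted p of 0.165 and 0.275. All 8 KD1 arrays had ADM above 0. EGLN3, the HIF prolyl hydroxylase PHD3, had −0.76 and −0.74 for KD1 vs CON and −0.46 and −0.97 for WT vs CON. The means were −0.75 ± 0.01 and −0.72 ± 0.36 with adjusted p of 0.144 and 0.179. EGLN3 was thus highest in CON, at 10.30 and 10.64, above the WT extracts at 9.81 and 9.66 and the KD1 extracts at 9.57 and 9.90.

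CA9 had no level to compare, since its channels were at or near background, and no ratio is given.

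The muscle forms were set against the other forms of the same enzyme within each replicate. PFKM, the muscle phosphofructokinase, was at 0.01 and 0.01 for KD1 vs CON with a 95% interval of −0.43 to 0.45, and had −0.18 and −0.22 for KD1 vs WT. PFKM minus PFKP was 0.50 and 0.38 for KD1 vs CON and 0.50 and 0.47 for KD1 vs WT, a mean of 0.44 ± 0.08 and 0.49 ± 0.02 (SD, n = 2), and 0.05 and −0.16 for WT vs CON. The balance between these 2 phosphofructokinases thus differed by a similar amount in both KD1 comparisons, which share the KD1 extracts and are not independent. With 2 values a group no permutation test can fall below 0.05, and no test was made of these differences.

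ENO3, the muscle enolase, turned with the replicate, at −0.61 and 0.20 for KD1 vs CON and −0.59 and 0.70 for KD1 vs WT. ENO3 minus ENO2 differed less between replicates, at −0.98 and −1.17 for KD1 vs CON, 0.29 and 0.33 for KD1 vs WT and −1.24 and −1.50 for WT vs CON. ENO3 minus ENO1 differed more, at −1.29 and −0.02 for KD1 vs CON and −0.53 and 1.33 for KD1 vs WT. PYGM, the muscle glycogen phosphorylase, had −0.04 and 0.60 for KD1 vs CON and 0.17 and 0.64 for KD1 vs WT, and −0.37 and −0.22 for WT vs CON. PYGM minus PYGL, the liver form, was −0.50 and −0.65 for WT vs CON and 0.07 and 0.44 for KD1 vs WT. PYGM minus PYGB, the brain form, was 0.68 and 0.48 for KD1 vs WT and had opposite signs in the replicates of the other comparisons.

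CKM, the muscle creatine kinase that buffers ATP in contracting fibers, had the largest ratios and the largest gap between replicates. It was at −0.25 and 1.96 for KD1 vs CON and at 0.72 and 3.48 for KD1 vs WT, and met the rule for testing in neither. For WT vs CON it was at −0.69 and −1.06, with an adjusted p of 0.494 (limma). Its extract signals were 5.20 and 5.79 in CON, 4.31 and 4.44 in WT, and 5.02 and 7.74 in KD1. CKM was well above background in all 8 channels of KD1 and of CON and in 4 of 8 of WT. CKB, the brain form that most cells express, was at −0.69 and −0.20 for KD1 vs CON, and CKM minus CKB was 0.44 and 2.17 there and 1.41 and 3.16 for KD1 vs WT. SLC2A4 (GLUT4), the insulin-responsive transporter of muscle and fat, was dim, at −1.38 and −0.10 for KD1 vs WT and 1.33 and −0.31 for WT vs CON. SLC2A4 minus SLC2A1 was −0.43 and −0.30 for KD1 vs CON and had opposite signs elsewhere. PGAM2 was too dim for its difference from PGAM1 to be read.

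**Figure D4:**
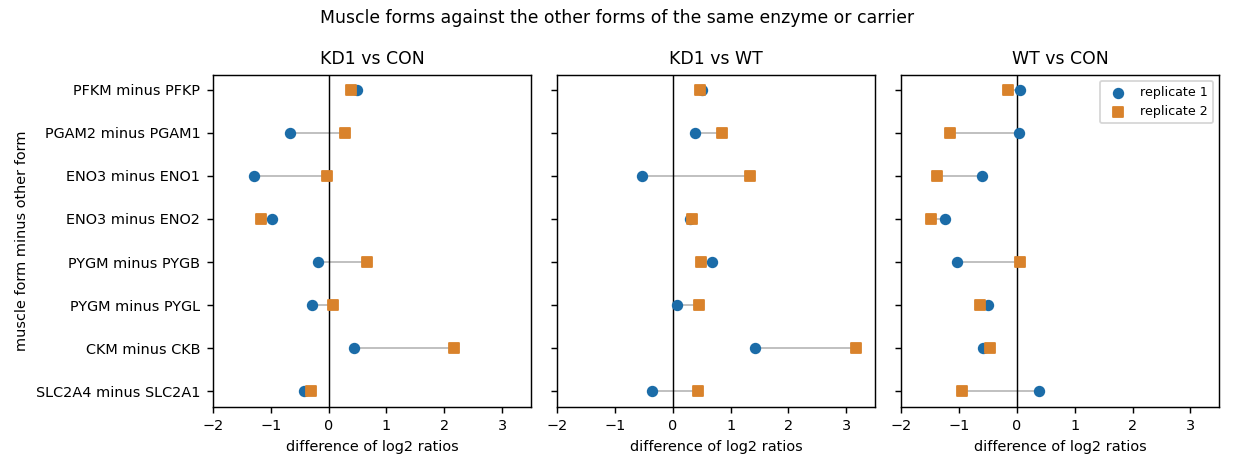
Difference of log2 ratios (x axis) between a muscle form and another form of the same enzyme or carrier (rows) for KD1 vs CON, KD1 vs WT and WT vs CON, 1 point per replicate. PFKM minus PFKP lies near 0.5 in both KD1 comparisons, and ENO3 minus ENO2 is negative against CON. CKM minus CKB and ENO3 minus ENO1 differ widely between replicates in both KD1 comparisons.

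The remaining genes were PYGB and PYGL. PYGL had 0.25 and 0.53 for KD1 vs CON, with all 4 arrays above 0 and an adjusted p of 0.369. PYGB was at −0.51 and 0.16 for KD1 vs WT and 0.67 and −0.28 for WT vs CON.

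The replicates of each culture were also set against each other. In extract signals the second KD1 extract exceeded the first by more than 0.5 for 8 of the 37 genes with a value on every array, and was more than 0.5 below it for 6. In CON these counts were 3 and 4, and in WT 0 and 6. CKM differed by 2.72 between the KD1 extracts, VEGFA by 1.43, SLC2A3 by 1.34, ADM by 1.14, PYGM by 1.1, ENO3 by 1.00 and ENO2 by 0.85, all higher in replicate 2. LDHA differed by −0.97, ENO1 by −0.85, PGAM1 by −0.78, PDK3 by −0.77 and PGK1 by −0.65, all lower in replicate 2. PFKM, also a muscle form, differed by −0.22. Replicates 1 and 2 of KD1 lay on different slides, and for KD1 the replicate and the slide cannot be told apart. Over the 32 genes tested everywhere, the median size of the gap was 0.38 in KD1, 0.26 in CON and 0.23 in WT, and over all genes 0.26, 0.20 and 0.26.

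Further genes of the same pathways were read in the same way. Of 77 other genes of glycolysis, glycogen and pyruvate metabolism on the array, 47 were tested for KD1 vs CON and 53 for KD1 vs WT, and 1 was called lower in each, where 1.06% and 0.835% of all genes were. It was SLC2A10, a facilitative glucose transporter of the GLUT family. SLC2A10 was lower in KD1, with −1.29 and −1.89 against CON (adjusted p of 0.0356) and −2.19 and −1.42 against WT (adjusted p of 0.0342). It was 3.02-fold lower than in CON and 3.48-fold lower than in WT. With the replicate block the call against CON was kept and that against WT was lost (adjusted p of 0.0523). With 3 residual degrees of freedom both calls of SLC2A10 were lost (adjusted p of 0.0710 and 0.0779, limma). Of 12 alternatives, 7 kept its call against CON and 6 that against WT. Across the alternatives its log2 ratios ranged from −1.674 to −0.343 against CON and from −1.845 to −0.511 against WT, so the size is uncertain. None of 57 was called for WT vs CON, where 7 had an unadjusted p under 0.05 (limma), against 3174 of all 19123 genes tested. The median ratios of these genes were −0.02, −0.03 and 0.03.

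Of 54 other genes of the HIF pathway or induced by hypoxia, 44 were tested for KD1 vs CON, and 4 were called higher and 0 lower, where 0.85% and 1.06% of all genes were. Among them were PLOD2, a collagen lysyl hydroxylase, with 1.57 and 1.56 (adjusted p of 0.0185), LOX, a collagen cross-linking oxidase, with 1.72 and 1.62 (0.0341), and HMOX1, heme oxygenase 1, with 1.02 and 1.60 (0.0351). PLOD2 and LOX were also called higher for WT vs CON, with 2.56 and 2.19 (0.00451) and 1.51 and 2.55 (0.0226), and for KD1 vs WT they had −1.12 and −0.57 and 0.08 and −0.77. Paired by replicate number as a block, PLOD2 kept its calls, while LOX (adjusted p of 0.0769 for KD1 vs CON and 0.0739 for WT vs CON) and HMOX1 (0.0662) lost theirs. PLOD2 and LOX, like PDK3, had ratios above 0 for both KD1 and WT over CON.

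For KD1 vs WT 48 of these genes were tested, of which 2 were called lower and 1 higher, where 0.835% and 0.336% of all genes were. INSIG1 and ARNT2 are among these calls and were read against a culture at or near background. The counts are therefore no support for a difference from those shares. LOXL2, a relative of LOX, had −1.50 and −1.91 (adjusted p of 0.0154). INSIG1, a regulator of sterol synthesis, was well above background in all 8 channels of WT and in none of KD1 or CON, and was at least 3.89-fold lower in KD1 than in WT. It passed the filter on dim probes through the WT channels, so its call is no support for a difference beyond that bound. ARNT2, a partner of HIF subunits, was well above background in all 8 channels of KD1 and of CON and in 3 of 8 of WT. Its ratios, 3.52 and 2.49 for KD1 vs WT and −4.68 and −2.54 for WT vs CON, are against a culture near background and their size is uncertain, and both calls were lost with the replicate block (adjusted p of 0.116 and 0.0992). For WT vs CON 2 of 47 were called higher and 1 lower, where 0.826% and 0.659% of all genes were. The lower one was ARNT2, with WT near background.

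Of 25 muscle differentiation genes, 0 of 19 were called for KD1 vs CON (limma). Of the 19, 6 had an unadjusted p under 0.05 (limma), against 2721 of all 15757 genes tested. By contrast, 3 of 21 were called higher in KD1 than in WT and 4 of 22 lower in WT than in CON, where 0.336% and 0.659% of all genes were. MYL1, a myosin light chain of fast and embryonic fibers, was at 1.66 and 3.27 for KD1 vs WT and −2.39 and −2.64 for WT vs CON, with adjusted p of 0.0469 and 0.0373. TNNI1, the slow troponin I, was at 1.87 and 1.96 and at −2.74 and −1.97, with adjusted p of 0.0208 and 0.00846. MYH8, the perinatal myosin heavy chain, had 2.50 and 4.20 for KD1 vs WT (0.0278). It was well above background in 8 of 8 channels of KD1 and in 5 of 8 of WT, so the size of its ratio is uncertain. MYOG and MYL4 had −1.96 and −1.50 and −2.17 and −1.63 for WT vs CON (0.0185 and 0.0139). The median of the list was −0.01 for KD1 vs CON, 0.74 for KD1 vs WT and −0.67 for WT vs CON. Not all of its genes went one way. Mean ratios ran from −1.92 to 3.35 for KD1 vs WT and from −2.51 to 1.58 for WT vs CON. With the replicate block the calls of MYL4 and of TNNI1 for WT vs CON were kept, and those of MYL1 (adjusted p of 0.112 and 0.102), MYH8 (0.104), MYOG (0.0915) and of TNNI1 for KD1 vs WT (0.0552) were lost. None of the muscle forms of the listed enzymes was called.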

How the data were processed

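RNA of 6 extracts was labeled with Cy3 and Cy5 (500 ng each) and hybridized to 12 arrays. Per the submitters' processing notes, Agilent Feature Extraction 10.5.1.1 was used, and the authors deposited linear intensity values, among them processed signals after background subtraction and lowess normalization. The deposited scanner files hold the Cy5 to Cy3 ratio as log10 and the deposited series table holds it as log2, with differences of at most 5.35e-06. Positions are on NCBI36 per the file headers.

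Log2 ratios were computed from the processed intensity values leaving out 95 to 188 outlier spots on each array, and were averaged per probe and then per dye-swap pair. Signal was well above background for 71.1% to 73.6% of spots in Cy3 and 64.4% to 67.8% in Cy5, and 0 spots were saturated. Precision is limited by how few RNA extracts there are. The test was limma 3.58.1 in R 4.3.3 (lmFit, eBayes) on 6 replicate values with a coefficient per comparison, residual degrees of freedom lowered by hand from 3 to 2, since the comparisons share extracts, and Benjamini-Hochberg adjustment at 0.05 over the probes that passed the filter on dim probes. The fit was also run on simulated extracts, drawn independently and without slide or replicate effects. That run does not show how often the test errs on these arrays. Extracts with the same replicate number share arrays, so each ratio is taken within a replicate number. The labels call the duplicates biological and do not say how the cultures were kept apart, so p-values measure the spread between these extracts. Extract signals were log2 channel values after Aquantile normalization. Neighborhoods were the 51 nearest expressed genes on the chromosome.

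All 38 genes are named by their brightest probe; of the other lists, the genes that passed the test are named, except 1 that is not reported here. The genes and lists were chosen with earlier results of these data known. The array symbols were used as the files give them. Promoter sequences are from RefSeq on GRCh38.p14. Python 3.11.15 with numpy, pandas, scipy and matplotlib was used. The alternatives changed the background correction, normalization, source table, filter, probe rule, pairing, model, slide and dye terms, and left out each replicate.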

Additional observations from a re-analysis of the deposited data

How the results depend on the processing

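PDK3 in KD1 vs CON had log2 ratios of 0.84 to 1.34 under the 12 alternatives with a test, and adjusted p of 0.00647 to 0.130 (limma). Several of these changed the test, the filter or the source table and left the ratio at 1.32, and so do not test its direction. Under each alternative that did change the ratio, the direction was kept and the call was not. It was lost, leaving 0 listed genes called higher, with normexp background correction and loess (0.130), with median centring (0.0559), with no filter on dim probes (0.0842), with the loop fit (0.0671), with 3 residual degrees of freedom (0.0536), an alternative chosen after seeing the data, and with separate-channel values both without the replicate block (0.124) and with it (0.0720). The replicate block, which pairs the extracts of a number, gave 0 calls among the listed genes in every comparison, and 167, 110 and 102 calls over all probes tested, against 393, 261 and 365. Of the 20 calls among the other lists, rerun after seeing the data, 9 were kept with the replicate block, 10 with 3 residual degrees of freedom, 0 with normexp and loess, and between 6 and 19 with the other alternatives, where the stricter filter left 18 to test. Fitted with slide and dye terms, 1 gene was called lower in KD1 vs CON (EGLN3), 2 lower in KD1 vs WT (PFKP and SLC2A1) and 3 higher in WT vs CON (GAPDH, PDK3 and SLC2A1). With WT vs CON fitted alone 1 was called higher (ENO2). The fit with slide and dye terms takes the arrays as separate values with an estimated correlation, and its part in the added calls was not tested. The median of the listed genes in KD1 vs WT was −0.056 with median centring and −0.131 with the mean of all probes, and in WT vs CON it was 0.14 with median centring. Without 1 replicate it ranged from 0.12 to 0.16 in KD1 vs CON, from −0.15 to −0.10 in KD1 vs WT and from 0.17 to 0.22 in WT vs CON. Over all the alternatives the calls among probes ranged from 26 to 1006, from 1 to 1019 and from 2 to 1092. Of 103 tested member ratios, 16 changed sign under some alternative, and 0 of the 18 whose 95% interval leaves out 0 did so. Several alternatives change only the test or the filter and cannot change a sign. Counts of calls without 1 replicate were not computed, since a single value has no residual degrees of freedom.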
